A study of Mus musculus with 11 samples.

Results

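The genes described here encode plasma proteins and apolipoproteins that hepatocytes make and secrete. They are Alb, Afp, Ttr, Rbp4, Ahsg, Fgb, Apoa1, Apoa2, Apob and Apoe, chosen by name, and each had exactly 1 entry in the table of counts. They are 10 of 24849 genes in all. They were followed in AML12 cells, a mouse hepatocyte line established from the liver of a mouse transgenic for human TGF alpha and grown here in medium with serum, insulin, transferrin, selenium and dexamethasone. Polyadenylated RNA was sequenced from 3 groups of libraries. The 4 KO libraries, numbered 5 to 8, came from cells edited with CRISPR/Cas9 and a repair template at Txndc5; the labels call this genotype a knockdown, whereas the study's methods describe stable clones that lack the protein. The 4 KI libraries, also numbered 5 to 8, carried the label TXNDC5 Knockin, with TXNDC5 to be overexpressed from the ROSA26 safe harbour. The 3 WT libraries were WT 5-6, WT 7 and WT 8, where the first is a single library. It is not stated whether the libraries of an edited line came from the same clone or from separate cultures, so p-values measure the spread between these libraries, which may be technical.

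TXNDC5 is a protein disulfide isomerase of the endoplasmic reticulum, the compartment through which secreted proteins pass. Albumin is the main protein of plasma, and alpha-fetoprotein (Afp) is its fetal relative, encoded beside it and silenced in the adult liver. Apolipoproteins wrap the lipids that the liver exports: Apob is the structural protein of very low density lipoprotein (VLDL), Apoa1 and Apoa2 are the proteins of high density lipoprotein (HDL), and Apoe is a ligand by which remnant particles are taken up.

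On GRCm38, Alb (chr5:90460897-90476602) and Afp (chr5:90490737-90508907) lie side by side on the plus strand. Apoa1 lies at chr9:46228580-46230466, Apob at chr12:7977648-8016835, Ahsg at chr16:22891277-22899449 and Apoa2 at chr1:171225054-171226379, all on the plus strand. Apoe (chr7:19696109-19699188), Fgb (chr3:83040141-83049863) and Rbp4 (chr19:38116629-38125281) lie on the minus strand.

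Total counts were between 30380360 and 38422243 in the KO, 29840366 and 30364098 in the WT, and 32360709 and 35335070 in the KI libraries. Levels are given as CPM, the counts relative to the size of the library as scaled by edgeR's TMM method over the 11 libraries. A floor of 3 counts per library was used, which covers counting error only. A call is an adjusted p under 0.05 from edgeR's quasi-likelihood test over all genes tested, fitted to the 2 groups compared, and SE is the standard error of a log2 fold change. The share of the largest newly assembled entry ran from 11.3% to 17.1% of a WT library, from 4.32% to 6.44% of a KO library and from 4.82% to 9.12% of a KI library. Scaling by library totals shifted the whole table, with a median on the log2 scale of -0.03 under TMM and 0.38 under totals in KO against WT, then -0.02 and 0.30 in KI against WT. Of the calls, 48.5% were higher in KO cells under TMM and 72.8% under totals, and in KI cells 50.2% and 76.3%. The fold changes below are therefore relative to the bulk of the genes. Txndc5 itself had 10.2 ± 1.90 CPM in the KO (SD, n = 4), 143 ± 4.37 in the WT (SD, n = 3) and 169 ± 10.2 in the KI cells (SD, n = 4). It was lower in the KO cells (log2 fold change -3.81, adjusted p = 4.09e-08 from edgeR's test). Every KI library lay above every WT library, but the difference was not called (log2 fold change 0.24, adjusted p = 0.136 from edgeR's test).

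Between KO and WT cells, 9 of the 10 genes had enough counts to be tested, and 8 of these were called: 5 were higher and 3 lower in the KO cells. Of all 13359 genes tested, 55.1% were called, 26.7% as higher and 28.4% as lower. The values of all 9 genes did not overlap between the KO and WT libraries, which also held for 55.1% of all genes. The 3 genes with the largest rise were Ahsg, Apoa1 and Alb. The median log2 fold change of the 9 genes was 0.66, or 1.06 with library totals. All calls and fold changes against the WT cells, here and for the KI cells, share the same 3 WT libraries.

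Alb had 4767, 3813, 4290 and 3589 CPM in KO 5, 6, 7 and 8. It had 739, 426 and 373 CPM in WT 5-6, WT 7 and WT 8. In KI 5, 6, 7 and 8 it had 263, 258, 302 and 160 CPM. The 3 lines were thus fully apart, with the KO cells highest and the KI cells lowest, and within the WT cells the library WT 5-6 stood highest. The mean was 4115 ± 524 CPM in the KO (SD, n = 4), 513 ± 198 in the WT (SD, n = 3) and 246 ± 60.5 in the KI cells (SD, n = 4). Alb was 7.93-fold higher in KO than in WT cells (log2 fold change 2.99, SE 0.26, adjusted p = 5.68e-06 from edgeR's test). It was 2.08-fold lower in KI than in WT cells (log2 fold change -1.06, SE 0.25, adjusted p = 0.00437 from the same test). This fall depended in size on WT 5-6, without which it was -0.70, and on the scaling, with -0.69 from library totals. The call held in both.

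Afp was near the lower end of what was counted, with 57, 62, 54 and 61 counts in the KO, 19, 20 and 16 in the WT and 143, 121, 106 and 62 in the KI libraries. Its order differed from that of Alb: the lowest group was the WT and the highest the KI cells, and the KO and KI libraries did not overlap, although KI 8 with 1.89 CPM lay close to KO 6 with 1.84. The level was 1.61 ± 0.18 CPM in the KO (SD, n = 4), 0.74 ± 0.15 in the WT (SD, n = 3) and 3.00 ± 0.90 in the KI cells (SD, n = 4). Afp was called as higher in KI than in WT cells (log2 fold change 1.94, SE 0.36, adjusted p = 0.00111 from edgeR's test). The call in KO against WT (log2 fold change 1.05, SE 0.37, adjusted p = 0.0307 from edgeR's test) was lost without KO 5, KO 6, KO 7 or WT 8. In these fits the log2 fold change was between 0.92 and 1.05 and edgeR's adjusted p between 0.0554 and 0.0779.

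The ratio of Alb to Afp counts within a library does not depend on how libraries are scaled. It was between 2077 and 2983 in the KO, 527.5 and 872.6 in the WT and 65.8 and 109 in the KI libraries. On the log2 scale, with 0.5 added to both counts, it was 11.3 ± 0.22 (SD, n = 4), 9.35 ± 0.36 (SD, n = 3) and 6.37 ± 0.30 (SD, n = 4). The lines did not overlap in this ratio, which is given as a description without a test.

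**Figure D1:**
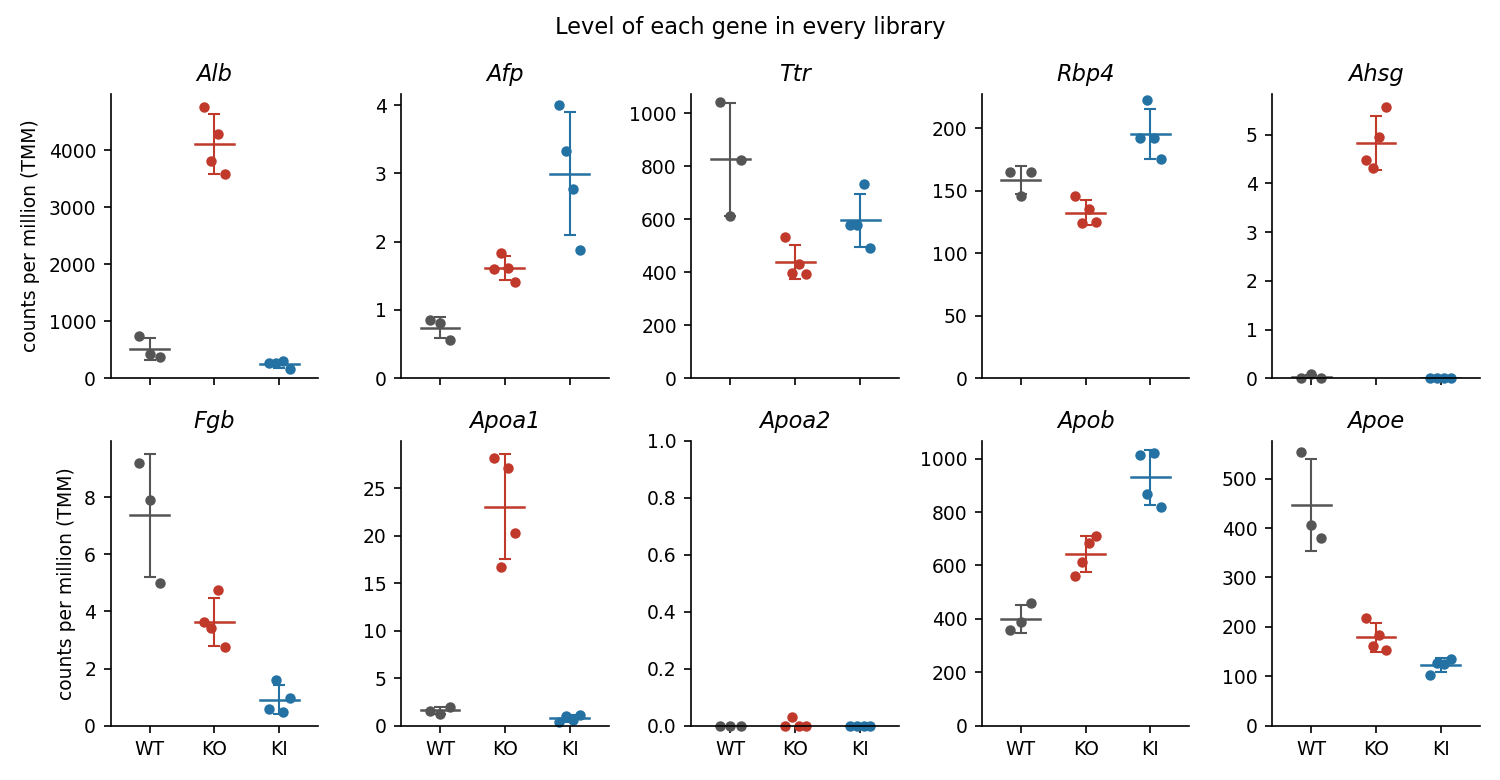
Level of each of the 10 genes (CPM scaled by TMM over 11 libraries, linear axes that start at 0) in WT, KO and KI libraries; points are libraries, the long bar is the mean and the error bar the SD, left out for Apoa2, which had 1 count in 1 library. Alb, Ahsg and Apoa1 stand highest in the KO cells, Afp, Rbp4 and Apob in the KI cells, and Ttr, Fgb and Apoe in the WT cells.

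Ahsg encodes fetuin-A, a carrier that keeps calcium phosphate in solution. Its counts were 160, 146, 165 and 242 in KO 5, 6, 7 and 8, then 0, 2 and 0 in the WT, and 0 in each KI library. It was therefore detected above the floor in the KO cells alone, at 4.83 ± 0.56 CPM (SD, n = 4). From the counts, the ratio of KO to WT was 181.5 with an exact 95% interval of 50.05 to 1501, which rests on 2 WT counts and covers counting error only, not the larger spread between libraries. Against the KI cells it was at least 57.6-fold higher, with the floor of 3 counts set in each KI library. Ahsg was called as higher in the KO cells in both comparisons (adjusted p = 3.52e-06 against WT and 1.64e-08 against KI from edgeR's test), and it was not tested in KI against WT.

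Apoa1 had 28.1, 16.7, 27.2 and 20.3 CPM in KO 5, 6, 7 and 8. In WT 5-6, WT 7 and WT 8 it had 1.56, 1.25 and 1.98 CPM, and in KI 5, 6, 7 and 8 it had 0.39, 1.05, 0.55 and 1.12 CPM. Every KO library was thus far above every other, and every KI library below every WT library. Apoa1 was 13.7-fold higher in KO than in WT cells (log2 fold change 3.77, SE 0.25, adjusted p = 1.11e-06 from edgeR's test). No call was made in KI against WT, with -0.98 on the log2 scale (SE 0.47, adjusted p = 0.106 from the same test). It was called with the 11 libraries in 1 fit (log2 fold change -0.999, adjusted p = 0.0184 from edgeR's test).

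Alb, Ahsg and Apoa1 were high together in the KO cells, and Afp is the neighbour of Alb that did not follow it across the lines, so the bases next to their start sites are shown. Promoters from RefSeq (GRCm38.p6) were found for 9 of the 10 genes, from 250 bases before to 50 after the start site, and were searched on both strands for 4 motifs of liver transcription factors. These were GTTAAT, any base and ATTNAC in a row for HNF1 with at most 1 mismatch, TTNNGCAA of C/EBP, TGTTTNC of FOXA and TGNACTTTG of HNF4. Of 32851 promoters of the same length, 0.59% held the first, 10.8% the C/EBP, 20.5% the FOXA and 1.41% the HNF4 motif. The last 150 bases before the start site follow, with the matches in capitals. The start sites of these promoters differ from the gene starts printed above. For Ahsg and Apoa1 they lie inside the gene as placed there, and all bases shown for Ahsg do so. None of the matches shown overlap each other.
Alb, chr5:90460720-90460869, plus strand: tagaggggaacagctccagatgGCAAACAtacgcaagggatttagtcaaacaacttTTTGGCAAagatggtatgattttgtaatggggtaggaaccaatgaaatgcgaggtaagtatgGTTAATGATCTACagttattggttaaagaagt
Afp, chr5:90490564-90490713, plus strand: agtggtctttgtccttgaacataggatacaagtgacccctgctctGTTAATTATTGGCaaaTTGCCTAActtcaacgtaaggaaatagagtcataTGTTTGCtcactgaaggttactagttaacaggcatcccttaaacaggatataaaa
Ahsg, chr16:22891865-22892014, plus strand: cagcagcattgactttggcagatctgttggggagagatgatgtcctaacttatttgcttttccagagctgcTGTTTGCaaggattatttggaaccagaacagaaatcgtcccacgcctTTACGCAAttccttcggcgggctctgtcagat
Apoa1, chr9:46228480-46228629, plus strand: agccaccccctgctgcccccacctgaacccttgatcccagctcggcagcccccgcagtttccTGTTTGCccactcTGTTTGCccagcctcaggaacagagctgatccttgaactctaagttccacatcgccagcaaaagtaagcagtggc

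Alb held a FOXA match from -128 to -122, a C/EBP match from -94 to -87 and an HNF1 match from -32 to -20, counted from the start site. Afp held the same 3 motifs in another order, with HNF1 from -105 to -93, C/EBP from -89 to -82 and FOXA from -55 to -49. Ahsg held FOXA from -79 to -73 and C/EBP from -32 to -25. Apoa1 held FOXA matches from -88 to -82 and from -75 to -69 and no other. Outside these 4 promoters, Fgb also held an HNF1 match, from -36 to -24, beside a C/EBP and a FOXA match. FOXA matches were also found for Apob, Apoe, Rbp4 and Apoa2, and C/EBP matches for Apob, Rbp4 and Apoa2. Apoe, Rbp4 and Apoa2 each had more than a single promoter searched, while the shares above are per promoter. The Apoe match lay across a start site, from -5 to 2, and its other promoters held none. In Rbp4 and Apoa2 the FOXA and C/EBP matches lay in different promoters. These motifs were therefore not particular to the genes that were high in the KO cells. No promoter of these 9 genes held the letters searched for HNF4. A match is a description of the letters only.

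Ttr carries thyroxine and binds the retinol-binding protein Rbp4, which carries retinol. Ttr had 533, 396, 431 and 393 CPM in KO 5, 6, 7 and 8. It had 1042, 613 and 824 CPM in the WT libraries, and 580, 579.5, 734 and 494 CPM in KI 5, 6, 7 and 8. Every KO library was below every WT library, while the KI libraries overlapped both. Ttr fell in KO against WT (log2 fold change -0.93, SE 0.18, adjusted p = 0.00139 from edgeR's test), with -0.52 from library totals. It was not called in KI against WT (log2 fold change -0.47, adjusted p = 0.0669 from edgeR's test). There it was called without WT 7 (-0.65, adjusted p = 0.0289 from edgeR's test) and without KI 7 (-0.58, adjusted p = 0.0432 from edgeR's test).

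Rbp4 varied least of the 9 tested genes. Its level was 133 ± 10.2 CPM in the KO (SD, n = 4), 158.5 ± 11.3 in the WT (SD, n = 3) and 196 ± 19.9 in the KI cells (SD, n = 4). The KO libraries lay between 125 and 146 CPM, the WT libraries between 145.5 and 165 and the KI libraries between 175 and 223. On this scale KO 5 with 145.9 CPM touched WT 7 with 145.5, while scaled within the KO and WT libraries alone the groups did not overlap. The log2 fold change of -0.28 in KO against WT (adjusted p = 0.0594 from edgeR's test) was not called, and neither was 0.30 in KI against WT (adjusted p = 0.0865 from the same test). The first was 0.13 with library totals, so its sign depended on the scaling. The second was called with library totals (0.63, adjusted p = 0.00522 from edgeR's test) and without WT 8 (0.33, adjusted p = 0.0452 from edgeR's test). KO and KI cells differed in Rbp4 (log2 fold change -0.56, adjusted p = 1.16e-04 from edgeR's test).

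Fgb, the beta chain of fibrinogen, was low in all lines. It had 3.62, 3.43, 4.74 and 2.74 CPM in KO 5, 6, 7 and 8, then 9.18, 7.91 and 4.99 CPM in the WT libraries. In KI 5, 6, 7 and 8 it had 0.59, 1.60, 0.47 and 0.97 CPM. The order was WT, KO, KI without overlap. It fell 7.65-fold in KI against WT (log2 fold change -2.94, SE 0.38, adjusted p = 7.36e-05 from edgeR's test). It also fell in KO against WT, by 1.03 on the log2 scale (SE 0.26, adjusted p = 0.00583), and this call from edgeR's test was lost with library totals (-0.59, adjusted p = 0.0524 from edgeR's test).

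Apob had 562, 613, 684 and 709 CPM in KO 5, 6, 7 and 8. It had 357, 388 and 458.5 CPM in the WT libraries, and 1012, 867, 1021 and 819 CPM in the KI libraries. The lines did not overlap, in the order WT, KO, KI. Apob rose in KO cells (log2 fold change 0.66, SE 0.15, adjusted p = 0.00286 from edgeR's test, with 1.06 from library totals). It rose in KI cells as well (log2 fold change 1.21, SE 0.16, adjusted p = 9.88e-05 from the same test).

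Apoe ran the other way. It had 217, 160.5, 184 and 153 CPM in KO 5, 6, 7 and 8, then 554, 407 and 380 CPM in the WT libraries. In KI 5, 6, 7 and 8 it had 103, 126, 125 and 135.5 CPM. Again the lines did not overlap, now in the order WT, KO, KI from the top. Apoe was 2.53-fold lower in KO than in WT cells (log2 fold change -1.34, SE 0.17, adjusted p = 7.24e-05 from edgeR's test). It was 3.65-fold lower in KI than in WT cells (log2 fold change -1.87, SE 0.16, adjusted p = 4.33e-06 from the same test). The ratio of Apob to Apoe counts was between 0.64 and 1.21 in the WT, 2.58 and 4.64 in the KO and 6.04 and 9.85 in the KI libraries. Its log2 was -0.15 ± 0.46 (SD, n = 3), 1.85 ± 0.35 (SD, n = 4) and 2.93 ± 0.31 (SD, n = 4), a description without a test.

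**Figure D2:**
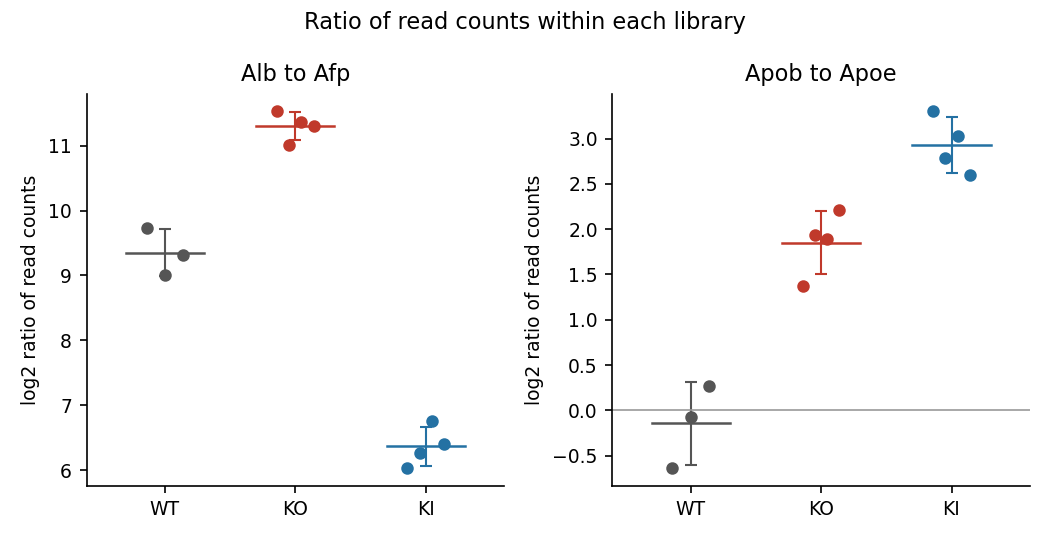
Log2 ratio of read counts within each library (vertical axes, which do not start at 0) for Alb to Afp and for Apob to Apoe in WT, KO and KI cells; points are libraries, bars the mean and the SD. The Alb to Afp ratio is highest in the KO cells at 11.3 and lowest in the KI cells at 6.37, whereas the Apob to Apoe ratio is above the WT value of -0.15 in both edited lines.

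Apoa2, which accompanies Apoa1 on HDL, had 1 count in KO 6 and 0 in the other 10 libraries. It was at or under the floor everywhere and was not tested, and no difference between the lines could be detected with these totals. The HDL genes therefore differed in these cells: Apoa1 reached 1004 counts in KO 5, where Apoa2 had 0.

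In KI against WT, 8 of the 10 genes were tested and 5 were called, 2 as higher (Afp and Apob) and 3 as lower (Alb, Fgb and Apoe). Among all 13534 genes, 42.3% were called, 21.2% as higher and 21.0% as lower. Of the 8 genes, 7 did not overlap between the KI and WT libraries, against 44.6% of all genes. With the 11 libraries in 1 fit, all 8 were called, where 45.8% of all genes were. The median log2 fold change of the 8 genes was -0.73, or -0.40 with library totals.

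KO and KI cells were compared directly as a test of the difference between the edited lines. All 9 genes tested were called, 5 as higher in the KO cells (Alb, Ahsg, Apoa1, Fgb and Apoe) and 4 as lower (Afp, Ttr, Rbp4 and Apob). Among all 13269 genes, 54.0% were called, 27.0% in each direction. Except for Ttr, none of the 9 overlapped between these groups, against 48.8% of all genes. Alb differed 16.8-fold (log2 fold change 4.07, SE 0.18, adjusted p = 1.02e-10 from edgeR's test) and Apoa1 28.0-fold (4.81, SE 0.27, adjusted p = 1.24e-09 from the same test). Smaller differences were found for Apob (-0.53, adjusted p = 5.63e-04 from edgeR's test), Apoe (0.55, adjusted p = 9.13e-04 from edgeR's test) and Ttr (-0.44, adjusted p = 0.00761 from edgeR's test). Fgb was 3.85-fold higher in the KO cells (log2 fold change 1.94, SE 0.35, adjusted p = 2.54e-04 from edgeR's test). Afp was lower in the KO cells (log2 fold change -0.87, adjusted p = 0.0136 from edgeR's test), a call that was lost without KI 5 (-0.70, adjusted p = 0.0605 from edgeR's test).

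**Figure D3:**
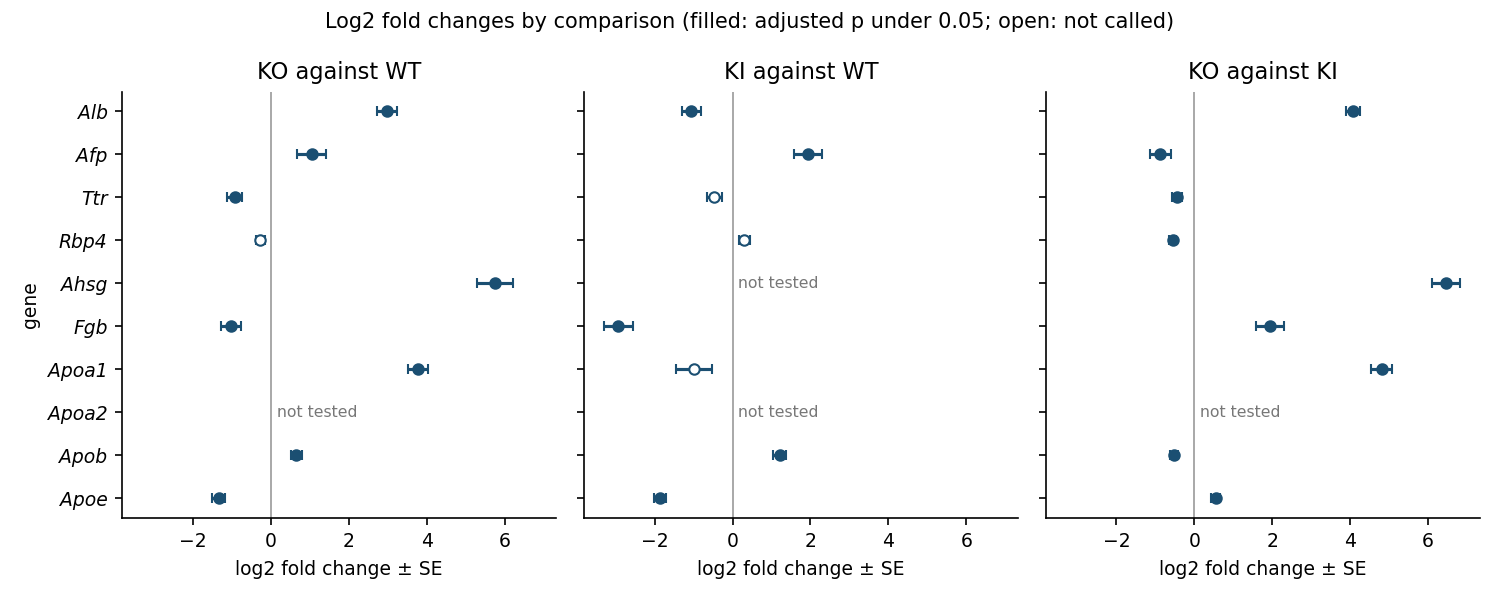
Log2 fold change with its standard error (horizontal axis) of each gene in the 3 comparisons; filled points have an adjusted p under 0.05, open points do not, and genes with too few counts are marked as not tested. Alb and Apoa1 lie at 2.99 and 3.77 in KO against WT and below 0 in KI against WT, whereas Apoe lies below 0 and Apob above 0 in both; the fitted value of Ahsg rests on groups at or near 0 counts.

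Per kilobase of exon, which allows levels to be set beside each other, Alb led in the KO cells with 1757 CPM per kb, ahead of Ttr with 369. In WT cells Ttr led with 697 CPM per kb, and Alb with 219 and Apoe with 209 overlapped. In KI cells Ttr led with 503 CPM per kb, followed by Rbp4 with 146. There Alb with 105, Apob with 66.7 and Apoe with 57.2 each overlapped with the next. At the lower end, Fgb with 1.93 and Apoa1 with 1.29 CPM per kb overlapped in the WT cells, as did Afp with 0.89, Apoa1 with 0.63 and Fgb with 0.24, each with the next, in the KI cells. In KO cells Apoa1 had 18.7, Ahsg 2.20, Fgb 0.95 and Afp 0.48 CPM per kb, without overlap between neighbours in that order. Summed over the 10 genes, the level was between 4998 and 6263 CPM in the KO, 1988 and 2869 in the WT and 1787 and 2377 in the KI libraries. Alb carried the higher sum in the KO cells: without it the other 9 genes summed to between 1320 and 1496 CPM in the KO, 1563 and 2129 in the WT and 1627 and 2076 in the KI libraries, so that the KO cells were lowest.

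Several of the genes lie in clusters with relatives. In the albumin cluster on chromosome 5, all 4 genes were called as higher in KO cells, against 26.7% of all genes tested. Besides Alb and Afp these were Afm, which encodes the vitamin E carrier afamin (log2 fold change 0.60, adjusted p = 0.0332 from edgeR's test), and Gc, the vitamin D carrier (0.53, adjusted p = 0.0072 from edgeR's test). These values were 0.99 and 0.94 under library totals. The call of Afp in KO against WT was lost in 5 of 14 alternatives. In KI cells Gc rose (1.53, adjusted p = 5.07e-05 from edgeR's test), as Afp did, while Alb fell and Afm was not called (0.31). All genes tested on chromosome 5 had a median log2 fold change of 0.01 in KO and -0.01 in KI against WT.

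In the Apoe cluster on chromosome 7, Apoc1, an inhibitor of lipoprotein uptake, had 1120, 837, 996 and 893 counts in the KO, 139, 115 and 104 in the WT and 3, 5, 9 and 6 in the KI libraries. It thus rose in KO cells (log2 fold change 2.43, adjusted p = 7.88e-06 from edgeR's test), where its neighbour Apoe fell. It fell in KI cells (-4.45, adjusted p = 3.50e-06 from the same test). Apoc2, the activator of lipoprotein lipase, fell in KO cells (-1.63, adjusted p = 8.64e-05 from edgeR's test) and was not called in KI cells (-0.43). Apoc4 was not called in KO cells (0.20), but was with library totals (0.64, adjusted p = 0.0248 from edgeR's test), and fell in KI cells (-1.47, adjusted p = 0.00137 from edgeR's test). Tomm40, a mitochondrial import gene next to Apoe, rose in both, with 1.72 in KO and 0.98 in KI cells (adjusted p = 1.12e-06 and 1.60e-04 from edgeR's test). All genes tested on chromosome 7 had a median log2 fold change of 0.53 in KO against WT, above that of the whole table, so Apoe moved against it. On chromosome 16, where Ahsg lies, the median was 0.49, and on chromosome 12, where Apob lies, -0.34. It was -0.32 on chromosome 18 with Ttr and -0.33 on chromosome 19 with Rbp4. On chromosome 9 with Apoa1 it was -0.04, and on chromosome 3 with Fgb 0.13.

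Beside Apoa1 on chromosome 9, Apoc3, an inhibitor of lipoprotein lipase, had 57, 43, 69 and 52 counts in the KO, 14, 10 and 6 in the WT, and 0, 0, 6 and 0 in the KI libraries. It rose in KO against WT (log2 fold change 1.74, adjusted p = 0.00863 from edgeR's test). Apoa5 had 6, 18 and 8 counts in the WT and 0 in every KO library, so it was at least 5.23-fold lower there, with no test. In the KI libraries it had 3, 0, 0 and 0 counts, also below every WT library and not tested. Fga, the fibrinogen alpha chain next to Fgb, fell with it in KI cells (-2.67, adjusted p = 1.30e-04 from edgeR's test) and in KO cells (-0.66, adjusted p = 0.0263 from the same test), where library totals gave -0.24 without a call. Fgg, the gamma chain, had 5 counts in KI 6 and 0 in all other libraries. Plrg1, a splicing factor in the same cluster, was called in none of the 3 comparisons. Fetub, the fetuin B gene next to Ahsg, had 100, 78, 121 and 154 counts in the KO, 6, 6 and 14 in the WT and 19, 13, 0 and 0 in the KI libraries. It rose in KO against WT (2.95, adjusted p = 8.34e-05 from edgeR's test). Further along, Kng2 fell in KO (-1.21, adjusted p = 2.92e-04 from edgeR's test) and in KI cells (-4.59, adjusted p = 1.38e-07 from the same test). Hrg had no count in any library.

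**Figure D4:**
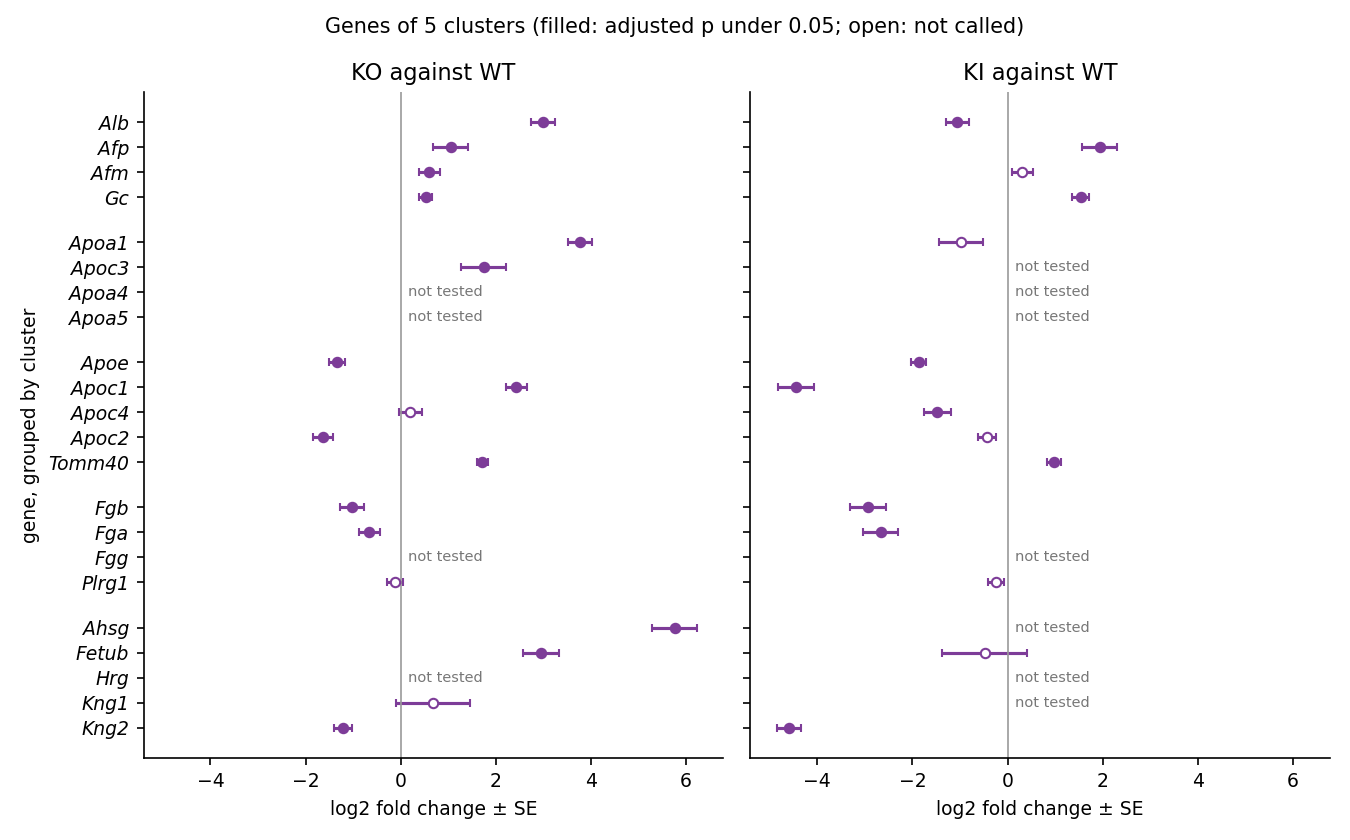
Log2 fold change with its standard error (horizontal axis) of the genes of 5 clusters in KO against WT and KI against WT; filled points have an adjusted p under 0.05. All 4 genes of the albumin cluster lie above 0 in KO cells, and Apoc1 lies at 2.43 in KO cells and at -4.45 in KI cells.

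Other plasma protein and lipoprotein genes were taken from 5 lists with 88 names, of which 87 were in the table. In KO against WT, 59 were tested and 47 called (79.7%, against 55.1% of all genes). Of these, 18 were higher and 29 lower, or 24 higher and 22 lower with library totals. Among all genes 26.7% were higher and 28.4% lower. In KI against WT, 36 of 56 related genes were called (64.3%, against 42.3% of all genes). Of these, 5 were higher and 31 lower, or 5 and 21 with library totals. Among all genes 21.2% were higher and 21.0% lower. The summed level of the related genes was between 8441 and 9419 CPM in the KO, 15330 and 18710 in the WT and 10860 and 12190 in the KI libraries. The sum of the related genes was thus lowest in the KO cells. Much of it lay in Selenop, Trf, Cp, C3 and Clu. Their means were 1191, 1346, 690, 1075 and 572 CPM in the KO cells. In the WT cells they were 3095, 2975, 2492, 1996 and 1721 CPM.

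Of the other apolipoproteins, 7 were tested in KO against WT, with 3 higher and 2 lower, or 4 and 2 with library totals. Among all genes 26.7% were higher and 28.4% lower under TMM. Apoh, which encodes beta-2-glycoprotein I, rose in KO cells (log2 fold change 3.02, adjusted p = 1.37e-05 from edgeR's test). In KI cells it fell (-1.51, adjusted p = 0.0194 from the same test), a call lost with library totals. Clu, which encodes clusterin, fell in KO cells from 1721 ± 405.5 (SD, n = 3) to 572 ± 27.8 CPM (SD, n = 4) (-1.61, adjusted p = 1.77e-05 from edgeR's test).

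Genes of lipoprotein assembly and remodelling gave 4 higher and 5 lower of 13 in KO cells, and 2 higher and 7 lower of 14 in KI cells. With library totals the balance turned in KO cells, with 7 higher and 3 lower, and was 2 and 4 in KI cells. Of all genes, 26.7% were higher and 28.4% lower in KO cells under TMM, and 21.2% and 21.0% in KI cells. Abca1, the transporter that loads Apoa1 with cholesterol, had 30.7 ± 5.34 CPM in the KO (SD, n = 4), 8.88 ± 1.19 in the WT (SD, n = 3) and 1.84 ± 0.43 in the KI cells (SD, n = 4). It was called as higher in KO (1.76, adjusted p = 1.60e-05 from edgeR's test) and lower in KI cells (-2.23, adjusted p = 1.77e-05 from the same test). Angptl4, an inhibitor of lipoprotein lipase, fell in KO cells (-2.02, adjusted p = 1.71e-06 from edgeR's test).

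The other carriers and protease inhibitors had 7 higher and 8 lower of 18 in KO cells and 2 higher and 9 lower of 17 in KI cells, or 8 and 7 and 2 and 8 with library totals. Of all genes, 26.7% were higher and 28.4% lower in KO cells under TMM, and 21.2% and 21.0% in KI cells. Serpinf1 had 0 counts in every WT library and was at least 9.04-fold higher in the KO cells. Vtn, which encodes vitronectin, rose from 0.059 to 0.88 CPM. Orm1 and Hp, which are acute phase genes, fell in KO cells (-2.21 and -1.30, adjusted p = 5.03e-06 and 1.25e-04 from edgeR's test). Hpx of the same list rose there (0.61, adjusted p = 0.0230 from the same test). In KI cells Hp, the haemoglobin carrier haptoglobin, fell from 798 ± 168 (SD, n = 3) to 78.9 ± 6.70 CPM (SD, n = 4) (-3.34, adjusted p = 7.17e-08 from edgeR's test).

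Coagulation and fibrinolysis genes had 1 higher and 6 lower of 9 in KO cells, and 1 higher and 4 lower of 8 in KI cells, or 2 and 4 and 1 and 3 with library totals. Proc, the anticoagulant protein C, fell in KO cells (-2.99, adjusted p = 1.33e-07 from edgeR's test), and F11 was the gene that rose (0.79, adjusted p = 0.00213 from the same test). Complement genes had 3 higher and 8 lower of 12 in KO cells and 0 higher and 8 lower of 11 in KI cells, or 3 and 6 and 0 and 4 with library totals. Beside both lists, 26.7% of all genes were higher and 28.4% lower in KO cells under TMM, and 21.2% and 21.0% in KI cells. Mbl1, a mannose-binding lectin, fell in both (-4.71 and -3.72, adjusted p = 1.24e-04 and 7.88e-04 from edgeR's test). In KO cells C1s1 rose (1.09, adjusted p = 1.82e-04 from edgeR's test), and Hc, complement C5, was at least 7.03-fold higher than in the WT cells, where it had 0 counts.

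**Figure D5:**
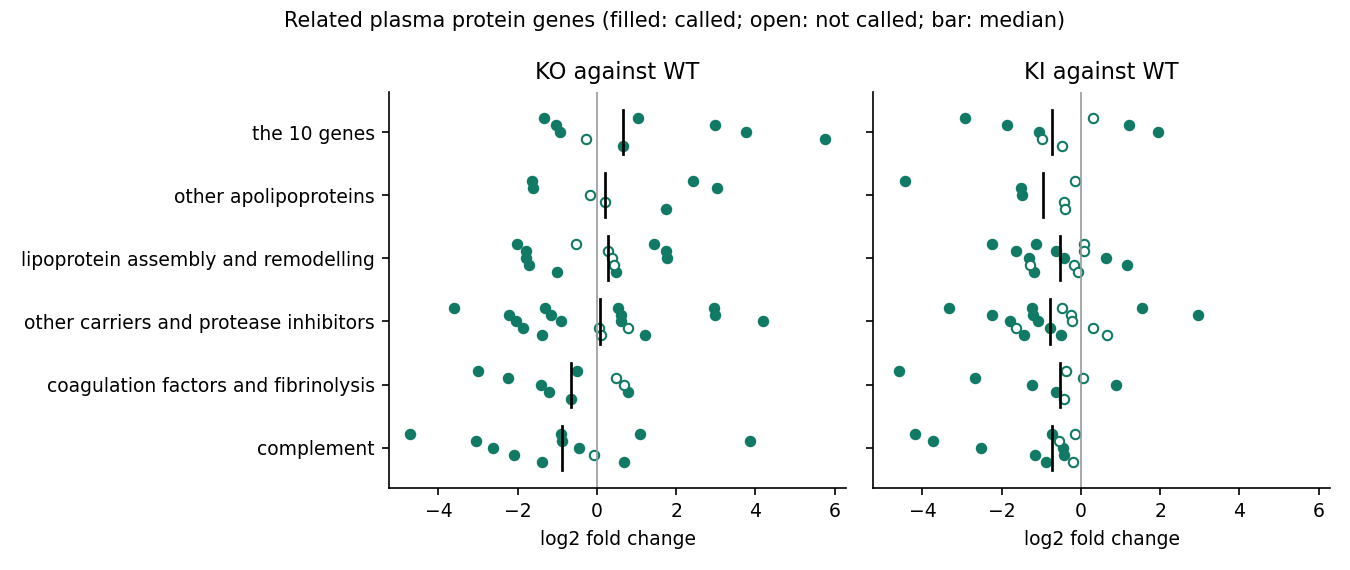
Log2 fold change (horizontal axis) of the 10 genes and of the genes of 5 related lists in KO against WT and KI against WT; each point is a tested gene, filled where called, and the vertical bar is the median. The 10 genes have medians of 0.66 and -0.73, and in KI cells the complement list has 8 filled points below 0, or 4 with library totals, and none above. Among all genes tested in KI against WT, 21.0% were called as lower.

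Of 18 liver transcription factors known to act on such genes, 6 were higher and 6 lower in KO against WT, and 1 was higher and 3 lower in KI against WT. With library totals these numbers were 7 and 4, and 3 and 2. Under TMM 66.7% of the factors were called in KO against WT and 22.2% in KI against WT. Among all genes these shares were 55.1% and 42.3%. In KO cells Nr2f1 had 0 counts in every library and was at least 15.8-fold lower than in WT cells (adjusted p = 2.58e-04 from edgeR's test). Other falls were those of Onecut1 (-2.92, adjusted p = 6.74e-04 from edgeR's test) and Nr5a2 (-2.59, adjusted p = 4.72e-06). In KI cells the largest changes were those of Nr5a2 (-3.35, adjusted p = 3.29e-06 from edgeR's test), Foxa1 (1.63, adjusted p = 0.00638) and Foxa3 (-1.22, adjusted p = 5.25e-04). Hnf4a, a nuclear receptor of hepatocytes, and Cebpa, a C/EBP factor, are given with their values because their families were searched in the promoters. Hnf4a rose in KO cells from 106.5 to 275 CPM (1.35, adjusted p = 6.29e-05 from edgeR's test). In KI cells it was not called (0.31) but was with library totals (0.61, adjusted p = 0.0338 from edgeR's test). Cebpa rose in KO cells from 40.2 to 133 CPM (1.70, adjusted p = 7.44e-06 from edgeR's test) and was not called in KI cells (-0.24).

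Markers of cell types were examined beside these results. Among all genes tested, the share called was 55.1% in KO and 42.3% in KI against WT. Of 12 hepatocyte markers, Cyp2e1 and Hpd had 0 counts in all libraries, and G6pc, Otc and Tdo2 were too low to be tested. In KO against WT, 3 rose and 1 fell of 7 tested, or 4 and 1 under library totals, among them Cps1 of the urea cycle (log2 fold change 3.19, adjusted p = 0.00178 from edgeR's test), Hnf4a and Asgr1, which had 0 counts in every KO library and was at least 4.90-fold lower there (adjusted p = 0.00319 from the same test). Their summed level, mostly Krt8 and Krt18, was between 3615 and 4410 CPM in the KO, 3551 and 4729 in the WT and 5744 and 7017 in the KI libraries. In KI against WT, 2 of the 5 hepatocyte markers tested rose and 0 fell, or 3 and 0 under library totals. The 2 under TMM were Krt18 (0.86, adjusted p = 0.00828 from edgeR's test) and Krt8 (0.62, adjusted p = 0.0137 from the same test). Of 8 biliary markers, Epcam had 0 counts in all libraries, Cftr had 0 in every KO library and Prom1 at most 6 counts in any. Of 5 tested, 1 rose and 4 fell in KO cells, or 1 and 2 under library totals. Krt19 was the one that rose (0.49, adjusted p = 0.0117 from edgeR's test). The largest falls were in Krt7 (-3.40, adjusted p = 2.32e-08 from edgeR's test) and Spp1 (-3.38, adjusted p = 4.23e-07). Of these markers 1 fell in KI cells, Krt7 (-0.59, adjusted p = 0.00288 from edgeR's test), a call lost with library totals. The sum of the biliary markers was between 1374 and 1530 CPM in the KO, 3049 and 4418 in the WT and 2643 and 3129 in the KI libraries. It was mostly Spp1 and Krt19. Spp1 had a mean of 246 CPM in the KO and 2520 in the WT cells, and Krt19 of 1097 and 770. The sums of stellate and of endothelial markers reached at most 1.86 and 0.42 CPM in any library. Of the macrophage and leukocyte markers, Adgre1 and Clec4f had 0 counts in all libraries, and the summed level of 375 to 669 CPM was mostly Cd14. Ptprc (-3.45, adjusted p = 0.0038 from edgeR's test) and Cd68 (-1.98, adjusted p = 1.58e-04) fell in KO cells from WT levels of 2.10 and 6.05 CPM. The part of these markers in the results for the 10 genes was not tested, and in bulk RNA fewer cells of a type and less RNA per cell cannot be told apart.

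The genes most like each of the 10 were sought by Pearson's r of log2 CPM over the 11 libraries, as a description. Apoa2 was too low to be included. The candidates were 4624 annotated genes outside the 10 whose group means spanned at least 1 on the log2 scale. The libraries fall into 3 lines, so r mostly reflects the order of 3 group means. For Alb the nearest genes were Acss2, an acetyl-CoA synthetase (r = 0.995), and Anxa8 (r = 0.994). Acss2 had 50.2, 15.9 and 12.2 CPM in the KO, WT and KI cells. The nearest to Ahsg was Tmem35a (r = 0.998), with 5.59, 0.03 and 0 CPM. Apoa1 was closest to Trim47 (r = 0.989) and Ifitm3 (r = 0.988). For Apob these were Msn, which encodes moesin (r = 0.989), and Col12a1 (r = 0.985), and for Apoe Lrmda (r = 0.990) and Cdpf1 (r = 0.984). Afp was closest to Wdr3 (r = 0.976) and Erg28 (r = 0.971), and Fgb to Fbxo2 (r = 0.973) and Ppp1r3c (r = 0.964). The lowest likeness was that of Ttr, to Bsg (r = 0.940) and Trim63 (r = 0.921), and Rbp4 was closest to Tmed4 (r = 0.959) and Srd5a1 (r = 0.955). Among the 10 genes themselves, r was 0.960 for Alb and Ahsg, 0.956 for Alb and Apoa1, -0.97 for Apob and Apoe and -0.17 for Alb and Afp.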

How the data were processed

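RNA of 11 AML12 libraries (4 KO, 3 WT, 4 KI) was sequenced by the authors' provider. The deposited counts are reads per gene without normalization. Per the submitters' processing notes HISAT2, TopHat2, Bowtie2 and StringTie were used, with no version given; the genome build and the strand setting of the counting are not given in the sources used here. The described library preparation does not mark strand, so reads of overlapping or antisense genes cannot be told apart. Positions are those of GRCm38 (GENCODE M21) and RefSeq's GRCm38.p6, matched by name, and exon lengths come from the same annotation.

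Of 26472 lines, 10 with broken fields were left out and 26462 used, 2960 of them newly assembled; entries of one name were added up, leaving 24849 genes. The 11 columns of FPKM had lost their decimal points and, like the columns of fold changes and p-values of the authors' comparisons, were not used here. Genes were filtered and scaled (TMM) by edgeR 4.0.16 in R 4.3.3, with a prior count of 2, and tested by its quasi-likelihood test with Benjamini-Hochberg adjustment over all genes tested (adjusted p under 0.05). The standard error is the log2 fold change divided by the square root of F. The test was tried on simulated data with known changes. Alternatives used DESeq2 1.42.0, limma 3.58.1, library totals, no filter, all 11 libraries in 1 fit, annotated entries only, a replicate block, and each library left out in turn. No 2 libraries of a group agreed within counting noise (chi-square per degree of freedom at least 17.1). The members and the lists of related genes, factors and markers were chosen with earlier results of these data known. Named genes were all of the 10 and of their clusters, the 3 largest rises and falls per related list, the 3 largest called changes per list of factors or markers, and the nearest genes by correlation. From this set the genes printed, and others beyond it such as Hnf4a, Cebpa and Hpx, were chosen after their values were seen. Results for some listed genes are not reported here. Figures were drawn with matplotlib 3.10.9.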

Additional observations from a re-analysis of the deposited data

Results flagged for a closer look

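Of 18 sets of 4 libraries examined for a library far from the others, 1 stood out, where chance gives about 0.9. It was Apoa2 in KO 6, with 1 count where the other KO libraries had 0. The count is under the floor of 3.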

How the results depend on the processing

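Over 26 fold changes of the 10 genes and 373 alternative values, 354 kept their direction and side of the threshold, 7 lost the call, 11 gained it and 1 changed sign. That was Rbp4 in KO against WT, 0.13 with library totals, where the median of all genes is 0.38. The number of genes called in KI against WT was 8 with all 11 libraries in 1 fit and 5 in the fit of 2 groups. The numbers called among the related genes stayed within 1.5 times their values. Libraries that share a replicate number did not vary together (correlations of deviations across genes from -0.19 to 0.21), so the numbers were not used as pairs. With the replicate block, Afp in KO against WT lost its call (1.02, adjusted p = 0.0728 from edgeR's test) and Rbp4 gained it (-0.29, adjusted p = 0.0307 from the same test). Rbp4 in KO against WT was also called by DESeq2 (-0.30, adjusted p = 0.0158) and with annotated entries only (-0.31, adjusted p = 0.0375 from edgeR's test). Ttr in KI against WT was called by DESeq2 (-0.49, adjusted p = 0.0244). The cause of these changes was not tested. The planned ratio of Apoa1 to Apoa2 was not run, because Apoa2 was at or under the floor in every library. Depth limits what can be said of Apoa2 in any line and of Ahsg in WT and KI cells.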
